A study of Mus musculus with 9 samples.

Results

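Sertoli cells are the somatic cells of the seminiferous tubule that surround and feed the germ cells. The 10 genes described here encode hormones and signals of Sertoli cells (Amh, Inha, Inhba, Inhbb and Dhh), the receptor through which they respond to follicle-stimulating hormone (Fshr), and 4 transcription factors on which they depend (Sox9, Wt1, Gata4 and Nr5a1). They were chosen by name, for their known role in this cell type, from the 24505 genes in a table of mRNA counts. Earlier results of these data were known when they were chosen. The libraries in that table were made from sorted germ cells, which the study describes as highly enriched but not wholly pure. A single gene set of a somatic cell was followed across these libraries.

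In the fetal testis, SOX9, WT1, GATA4 and NR5A1 act together to establish the Sertoli cell, and AMH then removes the duct that would form the uterus. In the postnatal testis, FSH from the pituitary acts on FSHR and raises cyclic AMP in Sertoli cells. The inhibin alpha subunit pairs with a beta subunit to form inhibin, which lowers FSH, whereas paired beta subunits form activin. DHH signals from Sertoli cells to the PTCH1 receptor of Leydig and peritubular cells.

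The mice carried the Uchl1-EGFP transgene, in which the Uchl1 promoter drives EGFP in germ cells, on a C57BL/6 background outcrossed to CD-1. All received WIN 18,446, an inhibitor of retinoic acid (RA) synthesis, at 100 µg per g of body weight daily from P1, and then 1 injection of 10 µl RA at 10 µg/µl on P11, which synchronizes spermatogenesis. In RA-sufficient animals WIN 18,446 was stopped, and in RA-deficient animals it was continued. Cells were sorted by EGFP as intermediate and type B (In/B) spermatogonia at P17 (EGFP bright), and as preleptotene (PL) spermatocytes at P19 (EGFP dim) from RA-sufficient or RA-deficient testes, with 3 libraries a group. For In/B the labels name synchronized testes without a regimen, and the study's text describes In/B spermatogonia as RA-sufficient. Testes of at least 5 pups of a litter were pooled for a preparation, so that a library is a pool and not an animal, and the study's methods give 2 or 3 independent preparations. The p-values measure the spread between libraries. Between In/B and PL the age, the cell stage and the EGFP gate changed together and cannot be told apart. By the study's description, RA-deficient PL also differed from In/B in the continued WIN 18,446.

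The libraries held from 12612959 to 27042274 counted reads, with the shallowest in the RA-sufficient group. The RA-deficient libraries held 25048240 to 27042274 reads, and 14769 to 15327 genes with at least 1 count. In the other libraries 16758 to 18434 genes had a count, so that counts of 0 were more common in RA-deficient PL over all genes. The cause was not tested. Replicate libraries differed from each other beyond counting noise in every group, and RA-deficient replicate 3 stood farthest from the others. The 9 germ cell markers examined, among them Ddx4 and Dazl, summed to between 3691 and 7553 CPM, counts scaled to the size of the library, in the 9 libraries, and the 10 Sertoli genes to between 33.5 and 1126 CPM. Library sizes for CPM were TMM-scaled, which corrects for composition. Reads of germ cell markers were thus present in each group, and those of the 10 Sertoli genes were fewer. This order holds for these lists only. In RA-sufficient PL the 15 other Sertoli markers measured summed to 4200 to 5931 CPM, above the germ cell markers there, at 3691 to 4162 CPM.

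The 10 genes rose and fell largely together, and their level was much the highest in RA-sufficient PL. They summed to 33.5, 98.9 and 58.4 CPM in the 3 In/B libraries, 1126, 911 and 981 CPM in the RA-sufficient PL libraries, and 86.2, 82.8 and 149 CPM in the RA-deficient PL libraries. The RA-sufficient libraries did not overlap the other 6. In bulk libraries such as these, fewer cells of a type and less RNA per cell cannot be told apart. Of the 10 genes, 9 passed the filter on low counts in each comparison, and Inhba did not.

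**Figure D1:**
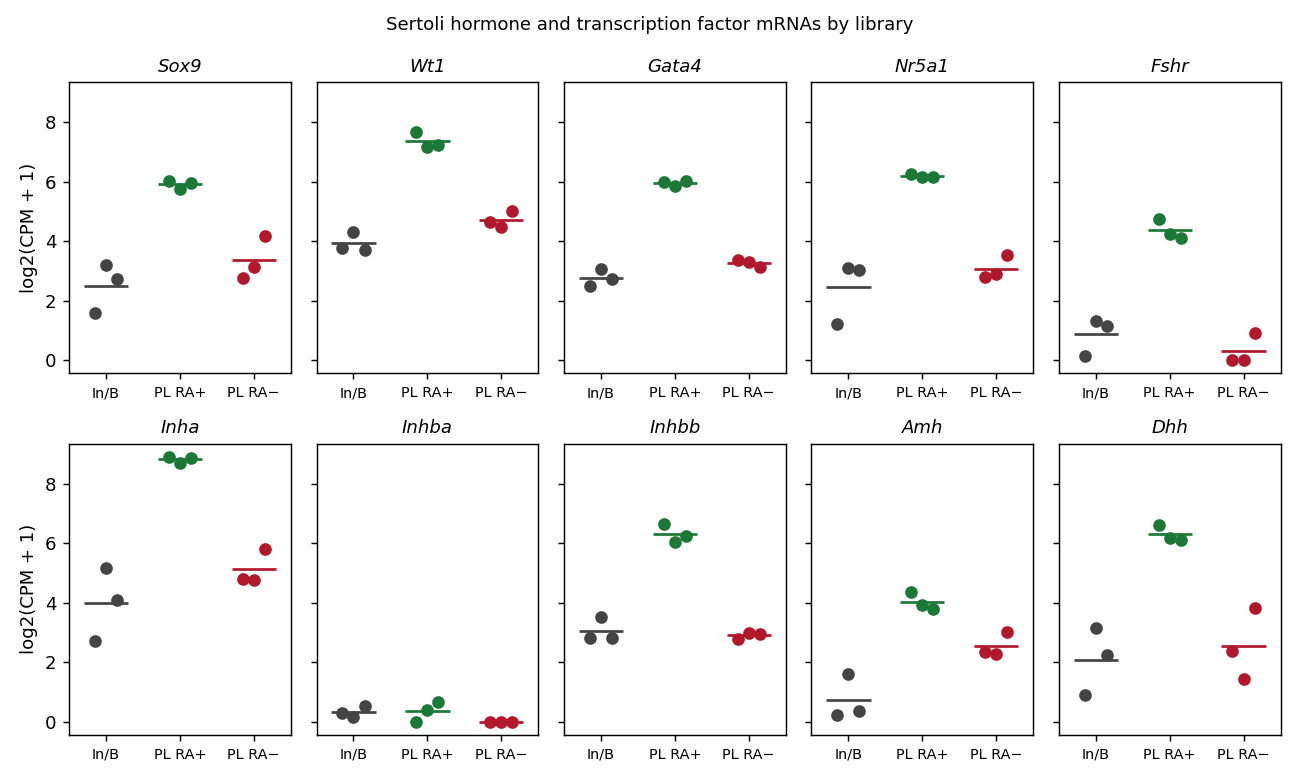
Levels of the 10 genes as log2(CPM + 1) by group (In/B, RA-sufficient PL as PL RA+, RA-deficient PL as PL RA−), with a point for each library and a line at the group mean of these log values. For 9 genes the RA-sufficient points lie above all others, and Inhba lies at or near 0 throughout.

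Each gene was tested with edgeR's quasi-likelihood test, and a gene was called changed where its log2 fold change was above 1 or below −1 with a Benjamini-Hochberg adjusted p below 0.05. RA-sufficient PL against In/B compares groups that differ in age, cell stage and EGFP gate, and 9 of 9 Sertoli genes tested were called higher. Over all 15001 genes tested, 26.1% were called higher and 19.3% lower, and 35.6% were higher with no overlap between the groups, as was true of all 9 tested genes. The median log2 fold change was 3.82 for the 9 genes and 0.0431 for all genes tested. RA-deficient against RA-sufficient PL asks what depends on RA at the same age and gate, and 9 of 9 were called lower. Over all 15352 genes tested, 11% were called lower and 4.47% higher, and 27.3% were lower with no overlap, as again were all 9. The median log2 fold change was −3.26 for the 9 genes and −0.0890 for all genes tested.

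In RA-deficient PL against In/B, 1 of 9 genes (Amh) was called higher and 8 were not called. Over all 14877 genes tested, 11.4% were called higher and 11.8% lower. The log2 fold change was above 0 for 7 of the 9 genes, with a median of 0.80, against 0.00382 for all genes tested. The comparisons share libraries, so that their results are not independent of each other. Scaling by library size alone moved the share of all calls that were higher from 49.1% to 28.9% in RA-deficient PL against In/B, and from 28.8% to 17.5% against RA-sufficient PL. It moved the median of all genes tested to −0.31 and −0.27 in these comparisons.

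**Figure D2:**
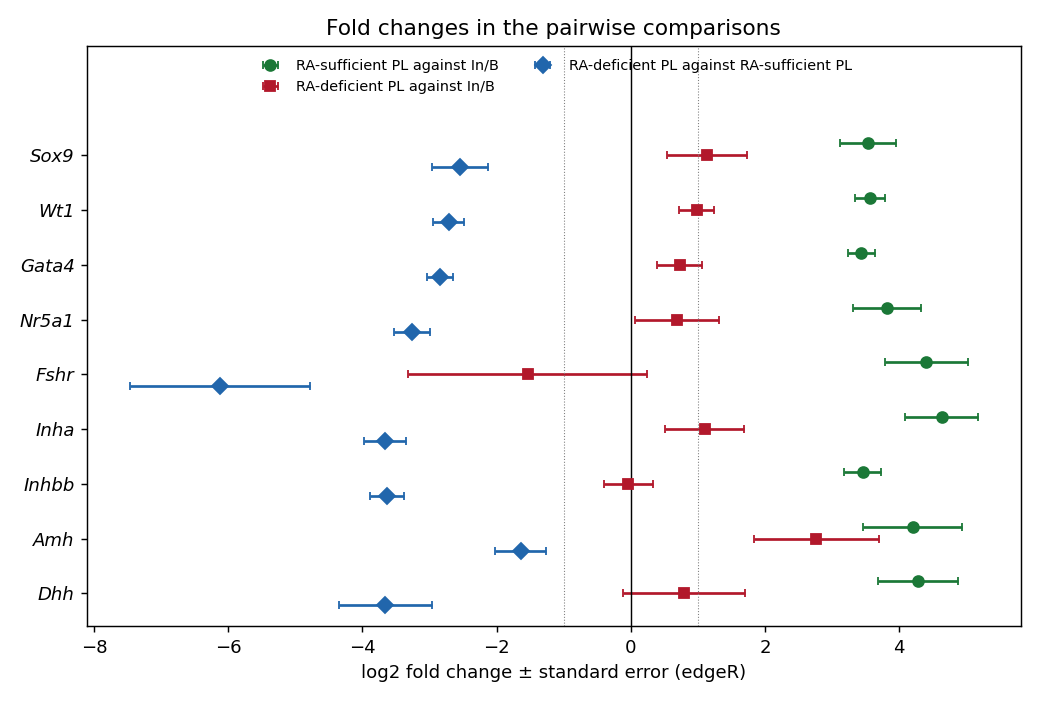
Log2 fold change of the 9 tested genes in each of the 3 comparisons, with bars of 1 standard error and dotted lines at −1 and 1. Circles are RA-sufficient PL against In/B, squares RA-deficient PL against In/B and diamonds RA-deficient against RA-sufficient PL. The circles lie between 3.44 and 4.63, and the diamonds between −6.13 and −1.64. Of the squares, Amh lies highest, at 2.77, and was the gene called.

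Some markers of other somatic cells were also highest in RA-sufficient PL. The summed level of the 15 other Sertoli markers measured was 199 to 640 CPM in In/B, 4200 to 5931 CPM in RA-sufficient PL and 600 to 919 CPM in RA-deficient PL. The Leydig cell markers summed to 10.5 to 17.2, 48.4 to 58.4 and 12.8 to 24.8 CPM in the same order, and the macrophage and blood cell markers to 5.37 to 7.33, 52.7 to 61.5 and 6.46 to 10.6 CPM. Most of this last sum in RA-sufficient PL came from a single gene, Mrc1, at 42.1 ± 9.17 CPM (SD, n = 3). From In/B to RA-sufficient PL, 5 of the 6 macrophage and blood cell markers tested were called higher, beside 26.1% of all genes. Lyz2, Cd74 and C1qa are among these 5 and did not pass the filter in RA-deficient PL against In/B. This count is thus partly set by the filter. The marker not called was Cd68, at 3.37 ± 0.615, 3.83 ± 1.42 and 4.56 ± 1.65 CPM (SD, n = 3) in the same order of groups. The peritubular and stromal markers summed to 85.2 to 107, 97.8 to 116 and 144 to 161 CPM, a sum highest in RA-deficient PL. A single gene, Col1a1, weighed heavily on this order, at 56.7 ± 12.3, 11.7 ± 4.97 and 64.4 ± 6.71 CPM (SD, n = 3). Of the 12 tested, 6 were called higher in RA-sufficient PL than in In/B, and Col1a1 was the 1 called lower. The shares over all genes were 26.1% higher and 19.3% lower. The part of other cells in the results for the 10 genes was not tested.

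Wt1 (chr2:104966686-105013773, mm9, plus strand), a zinc finger factor needed to maintain the Sertoli cell, was at 12.5, 19.02 and 12.0 CPM in In/B, 203, 144 and 151 CPM in RA-sufficient PL, and 24.0, 21.4 and 31.1 CPM in RA-deficient PL. The libraries of RA-deficient PL lay between those of the other groups. How many of all genes lacked overlap between RA-deficient PL and In/B was not computed. Nothing particular is thus read from this order for Wt1, Gata4 or Amh. Wt1 was 11.9-fold higher in RA-sufficient PL than in In/B (log2 3.57, SE 0.22, edgeR adjusted p = 1.17e-05). In RA-deficient PL it was 6.56-fold lower than in RA-sufficient PL (log2 −2.71, SE 0.23, edgeR adjusted p = 0.000815). Against In/B its log2 fold change of 0.98 (SE 0.26, edgeR adjusted p = 0.0210) missed the fold threshold, and it passed without In/B replicate 2 (1.19, adjusted p = 0.0324) and without RA-deficient replicate 2 (1.06, adjusted p = 0.0342).

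Sox9 (chr11:112643538-112649074, mm9, plus strand), the factor that directs the fetal gonad toward a testis, was at 2.01, 8.28 and 5.60 CPM in In/B. It was at 64.2, 53.2 and 61.4 CPM in RA-sufficient PL, and 5.80, 7.88 and 17.2 CPM in RA-deficient PL. RA-deficient replicate 3 held more than the other two, which lay inside the In/B range. Sox9 was 11.6-fold higher in RA-sufficient PL than In/B (log2 3.54, SE 0.42, edgeR adjusted p = 0.000143) and 5.82-fold lower in RA-deficient than RA-sufficient PL (log2 −2.54, SE 0.41, edgeR adjusted p = 0.00643). Its difference between RA-deficient PL and In/B did not pass (log2 1.13, SE 0.60, edgeR adjusted p = 0.182).

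Gata4 (chr14:63817759-63890529, mm9, minus strand), a GATA zinc finger factor of gonadal somatic cells, was at 4.64, 7.30 and 5.71 CPM in In/B, 63.1, 56.6 and 64.9 CPM in RA-sufficient PL, and 9.24, 8.84 and 7.87 CPM in RA-deficient PL. As with Wt1, the libraries of RA-deficient PL lay between those of the other groups. Gata4 was 10.8-fold higher in RA-sufficient PL than in In/B (log2 3.44, SE 0.21, edgeR adjusted p = 1.1e-05) and 7.14-fold lower in RA-deficient than in RA-sufficient PL (log2 −2.84, SE 0.19, edgeR adjusted p = 0.00079). Against In/B, RA-deficient PL differed by log2 0.73 (SE 0.33, edgeR adjusted p = 0.129), which did not pass.

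Nr5a1 (chr2:38548176-38570062, mm9, minus strand) encodes steroidogenic factor 1, a nuclear receptor that acts in both Sertoli and Leydig cells. It was at 1.34, 7.49 and 7.18 CPM in In/B, 76.4, 71.1 and 71.2 CPM in RA-sufficient PL, and 6.00, 6.38 and 10.5 CPM in RA-deficient PL. In RA-sufficient PL its highest and lowest libraries were within 1.07-fold of each other. Nr5a1 was 14.1-fold higher in RA-sufficient PL than in In/B (log2 3.82, SE 0.50, edgeR adjusted p = 0.000237) and 9.59-fold lower in RA-deficient than in RA-sufficient PL (log2 −3.26, SE 0.27, edgeR adjusted p = 0.000815). RA-deficient PL and In/B overlapped (log2 0.69, SE 0.62, edgeR adjusted p = 0.437). A noncoding RNA gene on the opposite strand, 4933433P16Rik, overlaps 1867 bases of Nr5a1, and whether reads were counted by strand was not stated in the sources used here.

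Fshr (chr17:89384292-89600015, mm9, minus strand), the receptor for FSH, showed the widest difference between the PL groups. It was at 0.112, 1.51 and 1.24 CPM in In/B (2, 40 and 22 counts), and at 25.8, 18.1 and 16.2 CPM in RA-sufficient PL. In RA-deficient PL, replicates 1 and 2 held 0 counts, which allow levels of up to 0.120 and 0.119 CPM by a floor of 3 counts, and replicate 3 held 20 counts (0.874 CPM). Its mRNA was thus at the limit of detection in a pair of RA-deficient libraries and plain in all RA-sufficient ones. The floors cover counting error only. Fshr was 21.2-fold higher in RA-sufficient PL than in In/B (log2 4.41, SE 0.62, edgeR adjusted p = 0.000346) and 69.9-fold lower in RA-deficient than in RA-sufficient PL (log2 −6.13, SE 1.34, edgeR adjusted p = 0.0184). This last call was lost without any 1 of the 3 RA-sufficient libraries (edgeR adjusted p = 0.0550 to 0.0729). Without RA-deficient replicate 3 it held (adjusted p = 0.000198), with both remaining libraries at 0, and without RA-deficient replicate 1 or 2 the log2 difference was −5.51. RA-deficient PL did not pass against In/B (log2 −1.54, SE 1.78, edgeR adjusted p = 0.553). It did pass as lower there when replicate 3 was left out (edgeR adjusted p = 0.0291), and no fold is given for libraries at 0.

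The Fshr promoter is known for an E-box bound by upstream stimulatory factors, and the 250 bases before its start (chr17:89600016-89600265, mm9, minus strand, sequence from RefSeq's table and placed on mm9 by exact match) are shown here for that element. Capitals mark the E-box CACGTG, whose first base lies 61 bases before the start. The letters CACGTG occur in 6.02% of the 32851 mouse promoters of the same length in that table, on either strand.
Fshr promoter: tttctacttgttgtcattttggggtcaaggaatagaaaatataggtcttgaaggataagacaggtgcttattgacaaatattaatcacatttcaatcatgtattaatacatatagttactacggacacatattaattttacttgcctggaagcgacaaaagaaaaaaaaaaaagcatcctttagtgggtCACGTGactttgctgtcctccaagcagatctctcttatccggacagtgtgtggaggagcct

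Inha (chr1:75503652-75506941, mm9, plus strand), the alpha subunit that makes a dimer an inhibin, was at 5.59, 35.0 and 16.1 CPM in In/B, 477, 417 and 461 CPM in RA-sufficient PL, and 27.0, 25.8 and 54.6 CPM in RA-deficient PL. Within In/B its level varied 6.25-fold, against 1.14-fold in RA-sufficient PL. Inha was 24.8-fold higher in RA-sufficient PL than in In/B (log2 4.63, SE 0.54, edgeR adjusted p = 0.000136), and log2 5.41 higher when In/B replicate 2 was left out. It was 12.7-fold lower in RA-deficient than in RA-sufficient PL (log2 −3.66, SE 0.31, edgeR adjusted p = 0.000845). RA-deficient PL overlapped In/B (log2 1.10, SE 0.59, edgeR adjusted p = 0.185), and the value was 1.86 without In/B replicate 2 (adjusted p = 0.0524).

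Of the beta subunits, 1 followed Inha and 1 was barely present. Inhbb (chr1:121312042-121318825, mm9, minus strand), the beta B subunit of inhibin B, the form made by Sertoli cells of the male, was at 6.04, 10.4 and 6.05 CPM in In/B, 100.2, 64.7 and 74.0 CPM in RA-sufficient PL, and 5.88, 6.93 and 6.65 CPM in RA-deficient PL. It was higher in RA-sufficient PL than in In/B by log2 3.46 (SE 0.27, edgeR adjusted p = 2.27e-05) and 12.4-fold lower in RA-deficient than in RA-sufficient PL (log2 −3.63, SE 0.25, edgeR adjusted p = 0.00079). Between RA-deficient PL and In/B its log2 fold change was −0.03 (SE 0.36, edgeR adjusted p = 0.956), nearest to 0 of the 9 genes. Inhba (chr13:16103684-16119044, mm9, plus strand), the beta A subunit, held 4, 3 and 8 counts in In/B, 0, 5 and 13 counts in RA-sufficient PL and 0 in each RA-deficient library. These counts are at most 0.573 CPM in any library and were too low to test, so that no fold is given. The libraries thus carried mRNA for the subunits of inhibin B, with little for the beta A subunit.

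The upstream 250 bases of both beta subunit genes are shown because Inhbb was called between groups while Inhba was at or near 0. Inhbb lies on the minus strand (chr1:121318826-121319075, mm9) and Inhba on the plus strand (chr13:16103434-16103683, mm9), both from RefSeq's table. The motifs searched on both strands were the NR5A1 half-site AAGGTCA, the GATA letters AGATAA or AGATAG and TGATAA or TGATAG, the SOX letters ACAAAG or ACAATG, the WT1 letters GTGGGAG, the E-box CACGTG and the cyclic AMP response element, which is TGAC followed directly by GTCA. Capitals in Inhbb mark GTGGGAG, whose first base is 170 bases before the start, and CTATCT, the reverse complement of AGATAG, at 27 bases. Capitals in Inhba mark CTTTGT, the reverse complement of ACAAAG, at 228 bases. The GATA letters occur in 26.5% of all promoters of this length, the SOX letters in 25.2% and GTGGGAG in 8.25%. The NR5A1 half-site occurs in 4.08% and the cyclic AMP response element in 1.55%.
Inhbb promoter: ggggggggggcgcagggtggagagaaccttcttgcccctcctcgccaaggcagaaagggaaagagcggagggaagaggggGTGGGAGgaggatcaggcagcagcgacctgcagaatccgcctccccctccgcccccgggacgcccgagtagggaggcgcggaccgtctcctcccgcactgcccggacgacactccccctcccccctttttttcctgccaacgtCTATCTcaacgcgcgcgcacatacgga
Inhba promoter: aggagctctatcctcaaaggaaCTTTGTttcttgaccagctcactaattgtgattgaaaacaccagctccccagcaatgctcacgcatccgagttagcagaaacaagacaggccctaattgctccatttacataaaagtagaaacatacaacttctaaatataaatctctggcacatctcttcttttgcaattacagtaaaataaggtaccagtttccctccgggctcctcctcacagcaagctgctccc

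Amh (chr10:80267993-80270393, mm9, plus strand), which Sertoli cells make until puberty, was at 0.168, 2.00 and 0.283 CPM in In/B, 19.5, 14.0 and 12.7 CPM in RA-sufficient PL, and 4.08, 3.84 and 7.04 CPM in RA-deficient PL. As for Wt1 and Gata4, the libraries of RA-deficient PL lay between those of the other groups. Amh was 18.4-fold higher in RA-sufficient PL than in In/B (log2 4.20, SE 0.73, edgeR adjusted p = 0.00109), and log2 6.08 higher without In/B replicate 2. In RA-deficient PL it was 3.12-fold lower than in RA-sufficient PL (log2 −1.64, SE 0.38, edgeR adjusted p = 0.0222), the smallest difference of the 9 genes in this comparison. It was 6.81-fold higher in RA-deficient PL than in In/B (log2 2.77, SE 0.94, edgeR adjusted p = 0.0499).

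Both Amh calls that involve RA-deficient PL were close to the threshold. Against In/B, the call was lost without any 1 of 5 of the 6 libraries (edgeR adjusted p = 0.0694 to 0.154) and held only without In/B replicate 2 (log2 4.57, adjusted p = 0.0105). Against RA-sufficient PL, it was lost without any 1 library but RA-deficient replicate 3 (edgeR adjusted p = 0.0550 to 0.0820), with that replicate left out it held (log2 −1.95, adjusted p = 0.00329), and it was lost with replicate number as a block (adjusted p = 0.0510). The direction was the same in each of these fits.

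Dhh (chr15:98723462-98728971, mm9, minus strand), the Hedgehog ligand of Sertoli cells, was at 0.839, 7.83 and 3.73 CPM in In/B, 97.2, 71.9 and 67.6 CPM in RA-sufficient PL, and 4.20, 1.70 and 13.1 CPM in RA-deficient PL. RA-deficient PL spread more widely for Dhh than for most of the genes, with replicate 3 the highest. Dhh was 19.5-fold higher in RA-sufficient PL than in In/B (log2 4.29, SE 0.60, edgeR adjusted p = 0.000324), and log2 5.14 higher without In/B replicate 2. It was 12.6-fold lower in RA-deficient than in RA-sufficient PL (log2 −3.66, SE 0.70, edgeR adjusted p = 0.0114), and the log2 difference was −4.73 without RA-deficient replicate 3. RA-deficient PL against In/B did not pass (log2 0.80, SE 0.91, edgeR adjusted p = 0.545), and the value turned to −0.30 without RA-deficient replicate 3.

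The 250 bases before the Dhh start (chr15:98728972-98729221, mm9, minus strand, from RefSeq's table) are shown beside those of Inhbb because both hold the WT1 letters. Capitals mark GTGGGAG, whose first base is 86 bases before the start. A match of letters is a description and not a site. RefSeq's table held promoters for 5 of the 10 genes, of which that of Inha begins 532 bases inside the gene model used here and is not shown.
Dhh promoter: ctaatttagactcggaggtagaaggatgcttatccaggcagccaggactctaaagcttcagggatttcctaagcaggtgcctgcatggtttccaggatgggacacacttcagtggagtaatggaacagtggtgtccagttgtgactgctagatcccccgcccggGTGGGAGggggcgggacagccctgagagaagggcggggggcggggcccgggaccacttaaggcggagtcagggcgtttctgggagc

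Per kilobase of exon, which allows levels of different genes to be compared, Inha led in each group, at 12.8 ± 10.1 CPM per kb in In/B (SD, n = 3), 306 ± 21.2 in RA-sufficient PL and 24.3 ± 11.02 in RA-deficient PL. In RA-sufficient PL it was followed by Dhh at 33.4 ± 6.78 and Wt1 at 26.8 ± 5.15 CPM per kb, whose libraries overlapped. Inhbb (18.7 ± 4.32), Nr5a1 (17.2 ± 0.716), Gata4 (15.7 ± 1.12) and Sox9 (14.4 ± 1.38 CPM per kb) came next, and of these neighbours only Nr5a1 and Gata4 had libraries that did not overlap. Amh (9.25 ± 2.17) and Fshr (8.49 ± 2.14 CPM per kb) were last before Inhba (0.148 ± 0.145) in RA-sufficient PL. In In/B, the genes after Inha ran from Wt1 at a mean of 2.34 CPM per kb down to Inhba at 0.133. In RA-deficient PL, Amh came next, at 3.00 ± 1.07 CPM per kb, after Inha and Wt1 (4.12 ± 0.816 CPM per kb), with levels that did not differ from those of Dhh (2.68 ± 2.54) beyond their spread.

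The share of each gene in the summed CPM of the 10 genes gives the composition without the overall level. Amh made up 1.00% ± 0.885 in In/B, 1.52% ± 0.219 in RA-sufficient PL and 4.70% ± 0.049 in RA-deficient PL (SD, n = 3), with the RA-deficient libraries between 4.64% and 4.73% and above all others. Fshr made up 1.33% ± 0.914, 1.98% ± 0.317 and 0.196% ± 0.339 in the same order. The share of Inha was 33.1% ± 3.09 in RA-deficient and 45.0% ± 2.41 in RA-sufficient PL, and that of Wt1 was 24.8% ± 3.56 and 16.4% ± 1.39. Nr5a1 had a share of 7.96% ± 4.16, 7.28% ± 0.512 and 7.25% ± 0.403. These shares were singled out after their values were seen and were not tested.

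**Figure D3:**
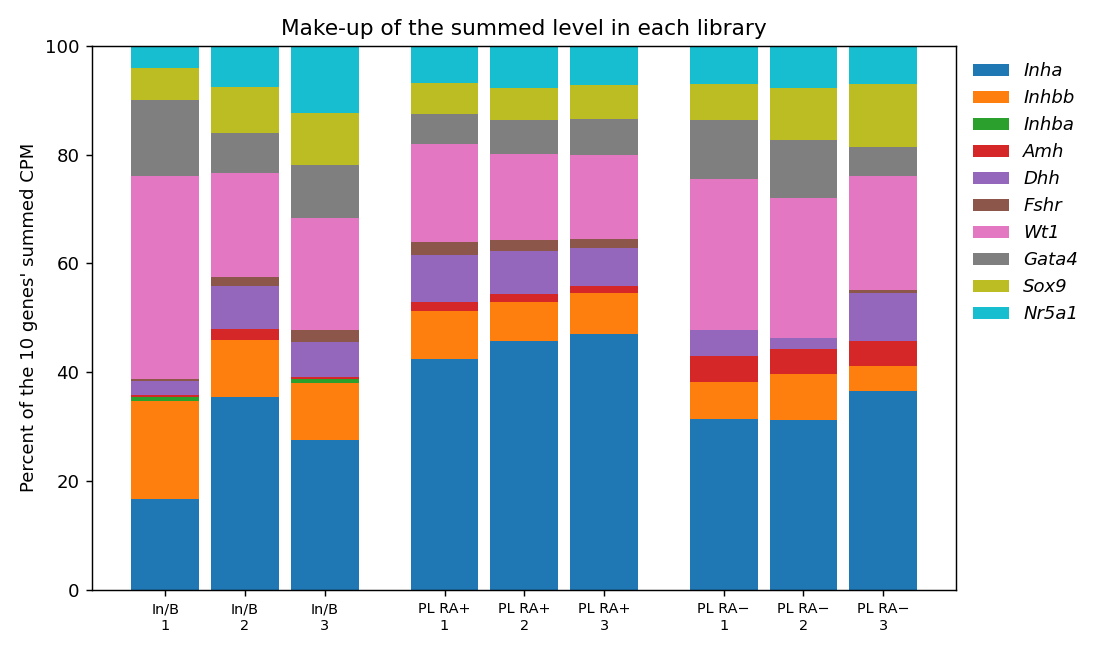
Share of each gene in the summed CPM of the 10 genes, in percent, for each library as a stacked bar that reaches 100, by group. The Amh segment is between 4.64 and 4.73 percent in the RA-deficient PL libraries and at most 2.03 percent in the others.

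Within groups, the genes tended to be high or low in the same library. In/B replicate 2 was the highest of its group for 9 of the 9 genes other than Inhba, and In/B replicate 1 the lowest for 8. RA-sufficient replicate 1 was the highest for 8 and RA-deficient replicate 3 for 7. Within In/B the highest library exceeded the lowest by 9.33-fold for Dhh and 6.25-fold for Inha, but by only 1.57-fold for Gata4 and 1.58-fold for Wt1. No such ratio is given for Fshr and Amh, whose lowest In/B library held 2 and 3 counts, at or under the floor of 3 counts. In RA-sufficient PL this ratio was between 1.07 for Nr5a1 and 1.59 for Fshr. The correlation of each gene with the mean log2(CPM + 1) of the other 8 over the 9 libraries was highest for Inha (Pearson r = 0.993) and lowest for Amh (r = 0.887) and Fshr (r = 0.946). The 9 points fall into 3 groups and share their libraries, so that these values are descriptions.

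Among the 11059 other genes that averaged 5 CPM or more, those most like the mean of the 9 genes over the 9 libraries were Folr1, Trim7, Reep2, Rhou and Gas7, each with Pearson r between 0.997 and 0.998 on the log2(CPM + 1) scale. Folr1, a folate receptor, had group means of 1.45 CPM in In/B, 26.5 in RA-sufficient PL and 2.76 in RA-deficient PL. Reep2 had means of 14.0, 142 and 17.8 CPM, and Gas7 12.7, 139 and 19.1 CPM in the same order. After the group means were removed, r was between 0.969 and 0.989 for these 5 genes.

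Other Sertoli markers were followed with the 10 genes. In RA-sufficient PL against In/B, 14 of 14 tested were called higher (median log2 3.86), beside 26.1% of all genes. Between the PL groups 13 of 15 were called lower in the RA-deficient libraries (median −2.99), beside 11% of all genes. From In/B to RA-deficient PL, 1 of 14 was called higher (median 0.93), beside 11.4% of all genes. The cystatin gene Cst9 was at 7.66 ± 5.38 CPM in In/B, 236 ± 36.4 in RA-sufficient PL and 18.7 ± 4.43 in RA-deficient PL (SD, n = 3), with log2 4.99 (SE 0.56, edgeR adjusted p = 0.000105) in RA-sufficient PL against In/B. The defensin gene Defb19 rose by log2 4.54 in that comparison (SE 0.55, edgeR adjusted p = 0.000164). Cst12, another cystatin, fell by 3.90 on the log2 scale in RA-deficient against RA-sufficient PL (SE 0.27, edgeR adjusted p = 0.00079). Aard was the marker called in RA-deficient PL against In/B, at 70.4 ± 15.9 against 20.7 ± 12.8 CPM (log2 1.94, SE 0.46, edgeR adjusted p = 0.0130).

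Other transcription factors of the gonad, a list that shares Rhox8 with the Sertoli markers, included genes called in both directions. In RA-sufficient PL against In/B, 8 of 15 tested were called higher and 6 lower, beside 26.1% and 19.3% of all genes. In RA-deficient against RA-sufficient PL, 5 of 17 were called higher and 7 lower, beside 4.47% and 11%. In RA-deficient PL against In/B, 2 of 14 were called higher and 3 lower, beside 11.4% and 11.8%. Nr0b1, which encodes DAX1, a partner and repressor of NR5A1, was at 1.61 ± 1.29 CPM in In/B, 45.2 ± 4.69 in RA-sufficient PL and 7.09 ± 2.10 in RA-deficient PL. Like Amh it was called in all 3 comparisons, with log2 4.82 (SE 0.50, edgeR adjusted p = 7.68e-05), −2.68 in RA-deficient against RA-sufficient PL (SE 0.28, adjusted p = 0.00155) and 2.31 in RA-deficient PL against In/B (SE 0.67, adjusted p = 0.0281). Gata1, a GATA factor that is also made by Sertoli cells, was at 3.69 ± 2.85, 65.6 ± 20.2 and 4.89 ± 2.504 CPM. Zfpm2, which encodes the GATA4 partner FOG2, followed another order, at 2.66 ± 0.639, 3.24 ± 1.23 and 0.148 ± 0.219 CPM, and was called lower in RA-deficient PL against both other groups (edgeR adjusted p = 0.0455 and 0.0482).

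The receptors and antagonists of activin, inhibin and AMH did not stand out from all genes by their counts. In RA-sufficient PL against In/B, 2 of 11 tested were called higher and 2 lower, beside 26.1% and 19.3% of all genes, and between the PL groups 1 was called higher in RA-deficient PL and 2 lower, beside 4.47% and 11%. Against In/B, edgeR called 0 of 11 in RA-deficient PL, with 3 at an unadjusted p below 0.05 and 0 called by DESeq2. Of all genes, edgeR called 11.4% higher and 11.8% lower there. The share of all genes at an unadjusted p below 0.05 was not computed, here or for the lists below. Amhr2, the AMH receptor, which Sertoli cells also make, went with the ligand, at 17.8 ± 12.4 CPM in In/B, 349 ± 65.8 in RA-sufficient PL and 31.7 ± 10.9 in RA-deficient PL. Its log2 fold change was 4.35 in RA-sufficient PL against In/B (SE 0.52, edgeR adjusted p = 0.000149) and −3.47 between RA-deficient and RA-sufficient PL (SE 0.28, edgeR adjusted p = 0.000815). Fstl3, a secreted protein that binds activin, was at 1.20 ± 0.318, 13.3 ± 3.65 and 0.612 ± 0.690 CPM, and was called in the same 2 comparisons (edgeR adjusted p = 6.66e-05 and 0.0275). Acvr2b, a type 2 activin receptor, moved the other way, at 132 ± 6.13, 23.7 ± 2.26 and 74.1 ± 20.5 CPM, with log2 −2.42 (SE 0.13, edgeR adjusted p = 1.08e-05) and then 1.64 (SE 0.24, adjusted p = 0.00450).

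Of 8 SMAD proteins tested, which carry these signals to the nucleus, 3 were called lower in RA-sufficient PL than in In/B. In RA-deficient PL, 1 was called lower than in In/B and 1 higher than in RA-sufficient PL. For all genes these shares were 19.3%, 11.8% and 4.47%. Smad1 was at 69.3 ± 7.33 CPM in In/B, 14.0 ± 7.27 in RA-sufficient PL and 26.3 ± 9.94 in RA-deficient PL. Smad9 was at 6.90 ± 2.17, 1.56 ± 1.10 and 2.79 ± 2.07 CPM. Smad4, the partner shared by these signals, was at 141 ± 12.8, 51.1 ± 8.40 and 107 ± 9.56 CPM, and was higher in RA-deficient than in RA-sufficient PL by log2 1.07 (SE 0.16, edgeR adjusted p = 0.00484).

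Of 12 genes of the Hedgehog pathway, on which DHH acts, 1 was called higher and 5 lower in RA-sufficient PL against In/B. For all genes these shares were 26.1% and 19.3%. In RA-deficient PL against In/B 1 of 13 was called higher and 2 lower, beside 11.4% and 11.8% of all genes. Between the PL groups edgeR called 0 of 11, with 7 at an unadjusted p below 0.05 and 4 called by DESeq2. Of all genes, edgeR called 4.47% higher in RA-deficient PL and 11% lower. Gli2, a transcription factor at the end of the pathway, was at 68.4 ± 1.56 CPM in In/B, 4.73 ± 3.79 in RA-sufficient PL and 62.7 ± 52.0 in RA-deficient PL (log2 −3.84 in RA-sufficient PL against In/B, SE 0.56, edgeR adjusted p = 0.000405). Gli3 was at 123 ± 13.1, 19.2 ± 6.48 and 50.4 ± 24.8 CPM and was called lower than In/B in both PL groups (edgeR adjusted p = 4.74e-05 and 0.0410). Sufu, which holds the GLI factors back, was at 40.7 ± 3.71, 60.7 ± 7.80 and 72.6 ± 6.18 CPM.

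Among genes of the path from FSHR to cyclic AMP, 7 of 19 tested were called higher and 5 lower in RA-sufficient PL against In/B, 5 of 18 higher and 4 lower in RA-deficient PL against In/B, and 1 of 19 higher and 3 lower in RA-deficient against RA-sufficient PL. For all genes these shares were 26.1% and 19.3%, 11.4% and 11.8%, and 4.47% and 11%, and nothing particular to the list is read from its counts. Gnas, the stimulatory G protein that couples the receptor to adenylyl cyclase, was at 31.1 ± 8.31 CPM in In/B, 204 ± 26.7 in RA-sufficient PL and 55.4 ± 12.6 in RA-deficient PL. Arrb1, a beta-arrestin that takes part in turning off such receptors, was at 2.42 ± 1.25, 36.2 ± 11.5 and 4.02 ± 1.18 CPM. These genes were lower in RA-deficient than in RA-sufficient PL by log2 −1.89 for Gnas (SE 0.21, edgeR adjusted p = 0.00187) and −3.19 for Arrb1 (SE 0.38, edgeR adjusted p = 0.00250). Adcy1, an adenylyl cyclase better known from neurons, was at 26.1 ± 5.70 CPM in In/B and at 1.40 ± 0.335 and 1.77 ± 1.76 CPM in the PL groups. Adcy7 was at 14.1 ± 3.76, 24.5 ± 11.9 and 73.0 ± 47.8 CPM, and was called higher in RA-deficient PL than in In/B (edgeR adjusted p = 0.0120).

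Of other cells that a testis suspension could hold, 5 of 6 Leydig cell markers tested were called higher in RA-sufficient PL than in In/B. Between the PL groups 1 of 7 was called lower in RA-deficient PL. For all genes these shares were 26.1% and 11%. With edgeR, 4 of the 7 were lower there at an unadjusted p below 0.05, and DESeq2 called 3 lower. Hsd17b3 was at 0.251 ± 0.266 CPM in In/B, 10.6 ± 5.17 in RA-sufficient PL and 0.784 ± 0.780 in RA-deficient PL, and Hsd3b6 at 0.557 ± 0.239, 7.90 ± 1.39 and 0.862 ± 0.902 CPM. Insl3, the defining hormone of Leydig cells, was at 0 in In/B and RA-deficient PL and at a mean of 0.0147 CPM in RA-sufficient PL. Star was the marker called lower, at 10.7 ± 1.74 in RA-deficient PL and 22.3 ± 1.01 CPM in RA-sufficient PL. Against In/B, edgeR called in RA-deficient PL 0 of 6 Leydig cell markers, with 0 at an unadjusted p below 0.05 and 0 called by DESeq2. Of all genes, edgeR called 11.4% higher and 11.8% lower there.

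Of the 11 macrophage and blood cell markers in the table, 6 passed the filter in RA-sufficient PL against In/B. Of these, 5 were called higher, beside 26.1% of all genes. Lyz2, Cd74 and C1qa are among these 5 and did not pass the filter in RA-deficient PL against In/B, so that this count is partly set by the filter. Between the PL groups, 2 of 7 were called lower in RA-deficient PL, beside 11% of all genes. Mrc1, a macrophage receptor, was at 1.95 ± 0.934 CPM in In/B, 42.1 ± 9.17 in RA-sufficient PL and 1.81 ± 0.983 in RA-deficient PL, and Lyz2, which encodes lysozyme, at 0.250 ± 0.0761, 3.73 ± 1.74 and 0.766 ± 0.433 CPM. The globin genes Hba-a1 and Hbb-b1 were at 0 in all 9 libraries, and Ptprc was at 0 in In/B and RA-deficient PL. Against In/B, edgeR called in RA-deficient PL 0 of 3 of these markers, with 0 at an unadjusted p below 0.05 and 0 called by DESeq2. Of all genes, edgeR called 11.4% higher and 11.8% lower there. Of the peritubular and stromal markers, 6 of 12 were called higher and 1 lower in RA-sufficient PL against In/B. For all genes these shares were 26.1% and 19.3%. Among those called higher was Acta2, the smooth muscle actin of peritubular cells, at 10.9 ± 5.56 against 0.866 ± 0.401 CPM. From In/B to RA-deficient PL, 3 of 12 were called higher, beside 11.4% of all genes. Among them were Dcn at 13.1 ± 3.03 against 3.85 ± 0.987 CPM and Pdgfra at 13.0 ± 6.11 against 3.99 ± 0.518 CPM. Between the PL groups their median log2 fold change was −0.01, and Col1a1 was the 1 of 12 called, and it was higher in RA-deficient PL, at 64.4 ± 6.71 against 11.7 ± 4.97 CPM.

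The sum of the germ cell markers was lowest in RA-sufficient PL, but single markers differed in order. They summed to 6108 to 7236 CPM in In/B, 3691 to 4162 in RA-sufficient PL and 6197 to 7553 CPM in RA-deficient PL. In RA-sufficient PL against In/B, 2 of 9 were called lower, beside 19.3% of all genes. Between the PL groups, 2 of 9 were called higher in RA-deficient PL, beside 4.47%. In RA-deficient PL against In/B, 3 of 9 were called higher, beside 11.4%, among them Taf7l (log2 1.24, SE 0.10, edgeR adjusted p = 0.00012). Uchl1, whose promoter drives the EGFP used for the sort, was at 2820 ± 727 CPM in In/B, 521 ± 94.3 in RA-sufficient PL and 1535 ± 478 in RA-deficient PL. Uchl1 was the largest part of the sum in In/B, and its fall made up most of the lower sum in RA-sufficient PL against In/B. In/B was sorted as EGFP bright and PL as EGFP dim, so that this fall cannot be told apart from the sort. Uchl1 was higher in RA-deficient than in RA-sufficient PL by log2 1.56 (SE 0.25, edgeR adjusted p = 0.00633), although both were sorted as EGFP dim. Tdrd9, which acts in piRNA defence, was at 224 ± 8.69, 77.9 ± 9.94 and 217 ± 68.9 CPM. Mael (344 ± 4.76, 435 ± 34.2 and 621 ± 57.5 CPM), Taf7l (589 ± 39.0, 807 ± 88.9 and 1234 ± 103 CPM) and Rnf17 (177 ± 4.17, 222 ± 19.1 and 203 ± 16.0 CPM) were higher in RA-sufficient PL than in In/B without overlap, at fold changes that missed the threshold. The part of these differences in the results for the Sertoli genes was not tested.

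**Figure D4:**
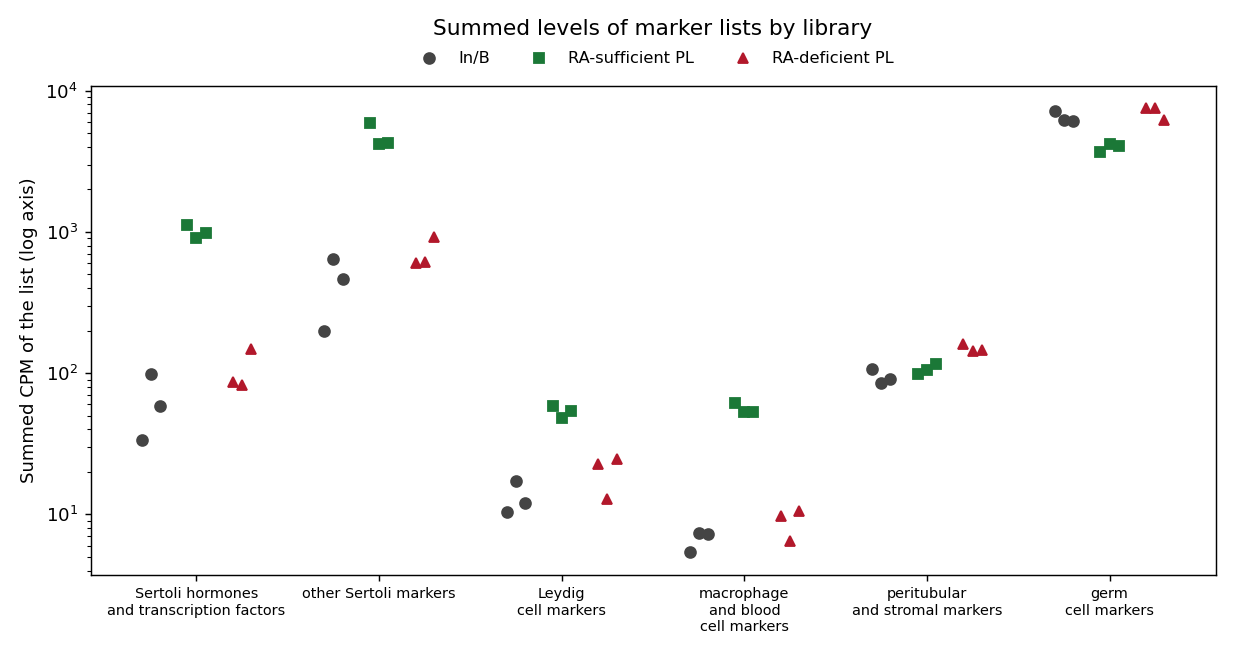
Summed CPM of each marker list in each library on a logarithmic axis, by group (circles In/B, squares RA-sufficient PL, triangles RA-deficient PL). The 10 Sertoli genes, other Sertoli markers, Leydig cell markers and macrophage and blood cell markers are highest in the 3 RA-sufficient PL libraries, and the germ cell markers lowest there. The germ cell markers include Uchl1, whose promoter drives the EGFP used for the sort.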

How the data were processed

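mRNA of EGFP-sorted cells was sequenced in 9 libraries, 3 a group. The authors made stranded poly(A) libraries, used cutadapt 1.9 to trim the reads, which were single-end, STAR 2.5.2b for alignment to mm9 and featureCounts for counts per gene (tool versions from the submitters' processing notes). They deposited raw counts for 24505 genes, without normalization. The gene annotation and the strand setting are not given in the sources used here. Library totals are the summed counts, and depth limits precision chiefly for Fshr and Inhba, where a floor of 3 counts is 0.113 to 0.221 CPM. Intervals and floors cover counting error only.

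Pairs of groups were tested with edgeR 4.0.16 (R 4.3.3, TMM, filterByExpr, quasi-likelihood test, Benjamini-Hochberg adjustment over all genes tested). SE is the absolute log2 fold change divided by the square root of F. CPM was scaled by TMM over all 9 libraries. Coordinates and exon lengths are those of GENCODE M1 (mm9). Promoters are from RefSeq's table, matched exactly to the mm9 genome. The scripts were tested on simulated data. Alternatives were DESeq2 1.42.0, other scalings, filters and thresholds, a fit of all 9 libraries, a replicate block and leaving out each library.

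The 10 genes and the other lists were chosen with earlier results of these data known. All 10 genes are named, and of each other list called genes with the 2 largest absolute log2 fold changes and a mean of at least 1 CPM. Genes like the 10 are the 5 with the highest Pearson r over the 9 libraries. Acvr2b, Insl3, Cd68, Cd74, C1qa, Ptprc, Hba-a1, Hbb-b1, Ddx4, Mael, Rnf17 and Rhox8 fall outside that rule and were named after their values were seen.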

Additional observations from a re-analysis of the deposited data

How the results depend on the processing

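All 9 tested Sertoli genes were called higher in RA-sufficient PL than in In/B under each alternative tried. In RA-deficient against RA-sufficient PL, between 6 and 9 were called lower under the alternatives that kept all libraries, and 7 to 9 when 1 library was left out. In RA-deficient PL against In/B, where 1 gene was called, 0 were called with scaling by library size only, with no filter, when tested against a fold of 2 and at an adjusted p of at most 0.01, and 2 were called with a mean of at least 50 counts and by adjusted p alone. Leaving out 1 library gave 0 to 2 there. In that comparison 2 of the 9 genes had an unadjusted p below 0.05 with edgeR, and DESeq2 called 1. Direction turned in 4 fits of that comparison, none with a call. Inhbb became 0.00367 with the replicate block, and when 1 library was left out it ranged from −0.16 to 0.24, above 0 without RA-deficient replicate 1 or In/B replicate 2. Dhh ranged from −0.30, without RA-deficient replicate 3, to 1.60.

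Replicate numbers were not taken to pair the libraries, since the correlations of same-numbered libraries ranged from −0.255 to 0.122. With the replicate block, 9 Sertoli genes were called for RA-sufficient PL over In/B, 1 for RA-deficient PL over In/B and 8 between the PL groups. Over all genes, the calls ranged over the alternatives from 4600 to 9748 (6803 in the fits reported), from 1207 to 5459 (3446) and from 741 to 4484 (2383) in the same order. The causes of these changes were not tested.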
